A study of Mus musculus with 39 samples.

Results

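Interferon-stimulated genes are the genes that cells switch on when an interferon binds its receptor, and the 45 members described here were chosen by name, out of 53465 genes in the deposited table. Of these, 33 are mainly known as targets of type I interferon and 12 as targets of interferon gamma (Irf1, Gbp2, Gbp3, Gbp5, Gbp7, Igtp, Irgm1, Irgm2, Iigp1, Cxcl9, Cxcl10 and Socs1). All 45 were present and passed the filter on low values, which asked for 1 TPM or more in 3 or more libraries (TPM, a level per transcript length that sums to 1000000 in each library). In every library 38 members stood at 1 TPM or more, and 20 at 5 TPM or more.

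Type I interferons act through a receptor made of Ifnar1 and Ifnar2, and their targets often carry promoter elements called ISREs, which a complex that holds Stat2 and Irf9 binds. Interferon gamma acts through Ifngr1 and Ifngr2, and its targets often carry elements called GAS. In myeloid cells the induced proteins sense viral RNA, block viral entry and replication, attack vacuoles that hold microbes, and recruit T cells.

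Mouse cells sorted as myeloid-derived suppressor cells, and all cells of newborn marrow and of intestine, were sequenced in 39 bulk RNA-seq libraries. These made 13 groups with 3 libraries each. Myeloid-derived suppressor cells are immature and dampen immune responses. Sorted cells were labelled granulocytic (G), monocytic (M) or both together (G+M). Newborn bone marrow (C57BL/6, labelled P7, wild type in the design text) gave G, M and all cells. Spleens of BALB/c mice labelled as immune-deficient gave G, M and G+M, spleens of APCmin/+ mice, which carry a mutant Apc allele and develop intestinal tumours, gave G, M and G+M, and intestines of APCmin/+ mice gave G, M, G+M and all cells. The labels used here name no sort marker, no age other than the newborns', no treatment, and no animal behind a library, so p-values measure the spread between libraries, which may be technical. Strain and tissue change together between newborn marrow and the other groups, whose ages are not given, and strain, the Apc allele and the immune deficiency change together between the 2 kinds of spleen, so they cannot be told apart.

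The promoters below are examples from both lists, with the elements named above marked where they occur. RefSeq promoters (GRCm38.p6) were given for 36 of the 45 members, and 250 bases before the start were searched on both strands for an ISRE-like core (GAAA, any 2 bases, GAAA) and a GAS-like palindrome (TTC, any 3 bases, GAA). An ISRE-like core lay in 19 of the 36 members (52.8%), against 3.46% of all 27025 genes, and a GAS-like match in 11 (30.6%), against 8.13%. Of the gamma-induced members 9 of 11 held the ISRE-like core and 5 the GAS-like match, and of the type I members 10 and 6 of 25. A match is a description of letters, not a binding site. Each line gives the 120 bases before the start, 5′ to 3′ on the gene's strand, with matches in capitals (adjoining matches run together), and none of the stretches overlaps a GENCODE exon of its gene, although RefSeq's outer gene edge reaches into those of Oas1a and Oasl2. Isg15 (chr4:156200819-156200938, minus strand) and Oas1a (chr5:120907526-120907645, minus strand) are type I members with overlapping ISRE-like cores, and Oas1a also holds a GAS-like match. Oasl2 (chr5:114896814-114896933, plus strand), which differed most between the 2 kinds of spleen in the G and G+M sorts, holds neither kind in this stretch. Irf1 (chr11:53769894-53770013, plus strand) holds a GAS-like match alone, while Gbp7 (chr3:142530216-142530335, plus strand), Igtp (chr11:58199436-58199555, plus strand) and its neighbour Irgm2 (chr11:58214857-58214976, plus strand) hold both kinds, as Oas1a does. In the 250 bases searched both kinds lay in 4 of 11 gamma-induced and 2 of 25 type I members.
Isg15: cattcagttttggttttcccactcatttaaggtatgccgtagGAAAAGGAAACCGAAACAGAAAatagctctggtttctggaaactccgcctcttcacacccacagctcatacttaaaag
Oas1a: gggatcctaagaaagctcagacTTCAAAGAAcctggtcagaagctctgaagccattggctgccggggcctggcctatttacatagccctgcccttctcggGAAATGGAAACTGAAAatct
Oasl2: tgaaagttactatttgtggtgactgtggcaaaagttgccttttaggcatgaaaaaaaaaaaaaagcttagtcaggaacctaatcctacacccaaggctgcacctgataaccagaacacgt
Irf1: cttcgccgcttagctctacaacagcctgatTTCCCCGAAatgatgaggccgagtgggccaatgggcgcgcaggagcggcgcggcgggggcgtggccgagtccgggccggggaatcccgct
Gbp7: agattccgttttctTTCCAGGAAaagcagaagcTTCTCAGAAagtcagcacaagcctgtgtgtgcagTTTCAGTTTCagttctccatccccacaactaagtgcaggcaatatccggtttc
Igtp: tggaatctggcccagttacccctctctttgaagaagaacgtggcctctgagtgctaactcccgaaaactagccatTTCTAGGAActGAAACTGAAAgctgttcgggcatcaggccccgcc
Irgm2: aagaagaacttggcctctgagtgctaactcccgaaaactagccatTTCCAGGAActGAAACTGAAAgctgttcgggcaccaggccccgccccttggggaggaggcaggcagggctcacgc

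Some libraries went against their labels, and this bears on the values that follow. All 3 intestinal sorts carried the epithelial marker list (19 of 19 genes) at a sum of 15745 to 23161 TPM, like all intestinal cells (15645 to 18253 TPM) and unlike the APCmin/+ spleen sorts (34.7 to 169 TPM), while the neutrophil list (12 genes) summed to 36.7 to 778 TPM there, against 26310 to 140141 TPM in the APCmin/+ spleen G and M sorts. The B and plasma cell list summed to 90896 to 125325 TPM in the intestinal M sort, to 4343 to 10321 TPM in the intestinal G sort and to 22938 to 100654 TPM across the splenic sorts. In APCmin/+ spleen, M replicate 2 held the neutrophil receptor Cxcr2 at 391 TPM and the monocyte receptor Ccr2 at 30.1 TPM, whereas BALB/c spleen M held Cxcr2 at 7.88, 3.69 and 13.8 and Ccr2 at 467, 368 and 752 TPM. That library is called the library labelled M replicate 2 below, and results that rest on it are given with and without it. Across all 3 APCmin/+ spleen M libraries the neutrophil list summed to 39147 to 125442 TPM, within the range of G (26310 to 140141 TPM). In BALB/c spleen it summed to 5753 to 7914 TPM in M and 17957 to 27839 TPM in G. Leaving out M replicate 2 therefore does not set the APCmin/+ sorts apart by this list. The APCmin/+ monocyte list was higher in M (1304 to 4043 TPM) than in G (929 to 1154 TPM). The newborn marrow M sort carried the neutrophil list at 126266 to 148039 TPM, as high as the G sort (130628 to 140860 TPM), beside a monocyte list of 4685 to 4866 against 669 to 696 TPM. Fewer cells of a type and less RNA per cell cannot be told apart in such bulk samples. Y-linked Ddx3y was present in replicates 1 and 2, and Xist in replicate 3, of APCmin/+ spleen G+M and of intestinal G+M and all cells, so these groups mix sexes, as the marrow groups do. The mitochondrial share ran from 2.07% to 20% of TPM. The part that sex, RNA quality and cell composition play in the results below was not tested.

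Summarised over the type I members, levels were higher in the splenic groups than in marrow and lowest in intestine. The mean of log2(TPM + 1) over the 33 members was 5.98 ± 0.32 (SD, n = 3) in the APCmin/+ spleen G sort, 5.93 ± 0.37 in M and 5.57 ± 0.23 in G+M. In BALB/c spleen it was 5.63 ± 0.25 in M, 5.14 ± 0.15 in G and 4.78 ± 0.26 in G+M. Newborn marrow gave 4.46 ± 0.04 in M, 4.34 ± 0.04 in G and 4.17 ± 0.07 in all cells, and intestine 3.98 ± 0.13 in M, 3.82 ± 0.08 in all cells, 3.66 ± 0.12 in G and 3.43 ± 0.17 in G+M. The gamma-induced members followed another order. Their mean was 4.25 to 4.65 in all 6 splenic groups, with BALB/c M at 4.65 ± 0.12 and APCmin/+ M at 4.49 ± 0.40 overlapping, 2.51 to 3.39 in intestine and 2.63 to 2.96 in marrow. The gap between the 2 lists on this scale, as group means, was therefore 1.32 to 1.54 in APCmin/+ spleen and 1.46 to 1.55 in marrow, but 0.48 to 0.98 in BALB/c spleen and 0.58 to 0.92 in intestine. Single libraries overlapped. The gap was 0.99, 1.78 and 1.53 in APCmin/+ spleen M (SD 0.40) and 0.86, 0.70 and 1.38 in BALB/c spleen M (SD 0.35). In intestinal G it was 0.78, 1.12 and 0.42 (SD 0.35). These are descriptions, with no test.

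**Figure D1:**
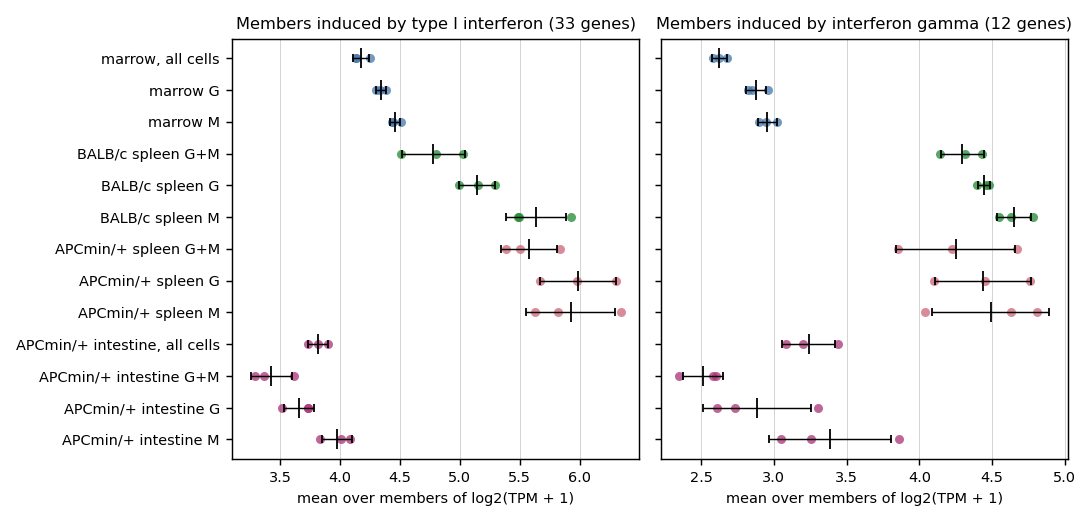
Mean log2(TPM + 1) over the 33 type I members and over the 12 gamma-induced members in each library (points) with the group mean and SD (bars), by group. Type I levels in APCmin/+ spleen, at 5.57 to 5.98, lie above those of intestine, at 3.43 to 3.98.

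**Figure D2:**
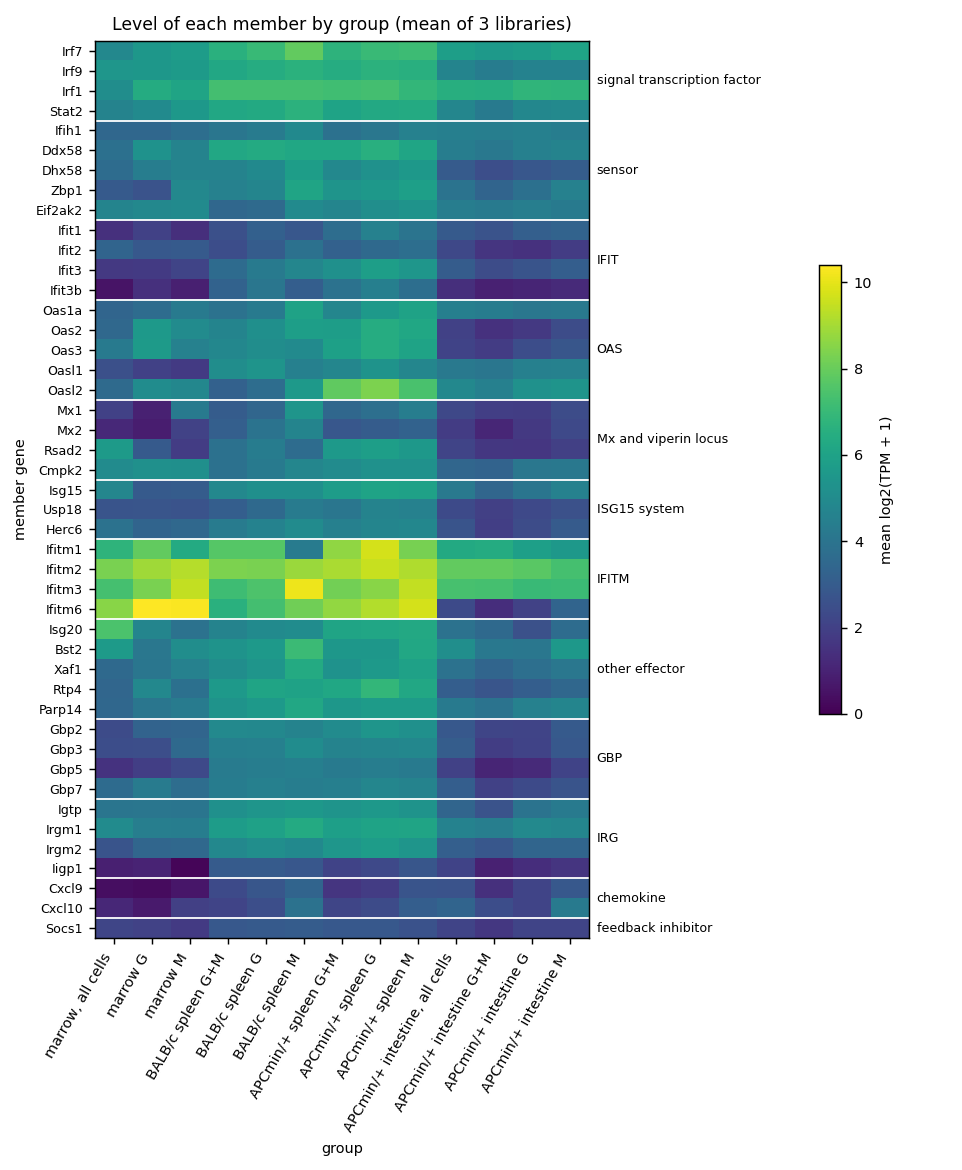
Colour gives the mean log2(TPM + 1) over the 3 libraries of a group, for the 45 members (rows, by role) in the 13 groups (columns). Most rows are brighter in the splenic columns than in the intestinal ones, Ifitm6 is brightest in the marrow sorts, and Cxcl9 is darker in the marrow columns than in all others.

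The ligands were nearly absent from these libraries, and the receptors were present in all of them. Of the 18 type I interferon genes 13 were listed at 0 in every library, and the highest value was 0.28 TPM (Ifne, an epithelial type I interferon). Ifng stood between 0 and 1.29 TPM. No ligand passed the filter, so none was tested. Ifnar2, a chain of the type I receptor, stood at 192, 171 and 196 TPM in BALB/c spleen M, 98.5, 73.4 and 109 TPM in APCmin/+ spleen M and 18.97, 19.01 and 19.4 TPM in intestinal M. It was lower in intestine with no overlap, and the APCmin/+ spleen values lay below the BALB/c ones. Ifngr1, a chain of the gamma receptor, stood at 214, 228 and 251 TPM in marrow M against 83.6, 80.95 and 88.1 TPM in marrow G (log2 fold change -1.44 ± 0.19 (SE), adjusted p = 6.51e-07), with M above G in every library. Ifnlr1, the type III receptor chain, ran the other way in marrow, at 44.5, 42.5 and 44.3 TPM in G against 23.7, 19.3 and 20.1 TPM in M (log2 fold change 1.03 ± 0.34 (SE), adjusted p = 0.0198).

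More members were called between sites than in any other comparison. In APCmin/+ mice 37 of the 45 members were lower in intestine than in spleen in the G sort and none higher, where 22.2% of all 18466 genes tested were lower and 18.7% higher. A gene counted as called where the limma adjusted p was under 0.05 and the log2 fold change, up or down, reached 1, on the log2(TPM + 1) scale, which understates changes of low genes. In the M sort 35 were lower and 1 higher (all genes 25.7% and 14.2%), and in the G+M sort 37 were lower and none higher (19.9% and 19.5%). The median log2 fold change of the members was -1.91, -1.83 and -2.04 in G, M and G+M, against -0.16, -0.43 and -0.15 over all genes. Rescaling the libraries to a common median ratio gave member medians of -1.74, -1.20 and -1.81, and 34, 26 and 32 members called. In the M sort it turned the share of higher among all called genes from 35.7% to 60.8%.

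By role, all 4 IFIT genes, whose proteins bind foreign RNA, all 4 guanylate-binding proteins (GBPs), which attack microbe-holding vacuoles, and all 3 members of the system built on Isg15, a ubiquitin-like modifier, were lower in the G sort, as were 4 of 5 OAS genes, which make the messenger that activates RNase L. Ifitm6, of the IFITM family that blocks viral entry, stood at 225, 1548 and 569.6 TPM in spleen G and 1.05, 8.84 and 2.58 TPM in intestinal G (log2 fold change -7.13 ± 0.57 (SE), adjusted p = 2.13e-12). Every splenic library was far above every intestinal one. Oas2 stood at 51.6, 97.2 and 130.1 TPM in spleen G and 2.17, 2.34 and 2.54 TPM in intestinal G (log2 fold change -4.71 ± 0.30 (SE), adjusted p = 1.03e-14), and its family member Oas3 at 49.6, 109 and 115 against 4.63, 4.37 and 4.59 TPM (log2 fold change -3.96 ± 0.30 (SE), adjusted p = 8.54e-13). Rsad2, which encodes the antiviral enzyme viperin, stood at 38.0, 68.8 and 65.7 TPM in spleen G and 2.08, 2.24 and 1.98 TPM in intestinal G (log2 fold change -4.19 ± 0.26 (SE), adjusted p = 6.63e-15). The groups did not overlap for any of these. The same 4 genes led in the other sorts, with log2 fold changes of -6.36 and -7.34 for Ifitm6, -3.77 and -4.32 for Oas2, -3.23 and -4.07 for Oas3, and -3.56 and -3.91 for Rsad2, in M and G+M.

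Irf1, Ifih1, Oasl1 and Cxcl9 were not called in any of the 3 sorts. Irf1, a transcription factor induced by gamma, stood at 131, 126 and 219.6 TPM in spleen G and 113, 98.1 and 119 TPM in intestinal G, and Ifih1, the RNA sensor MDA5, at 13.9, 13.8 and 22.1 TPM against 22.5, 21.6 and 21.2 TPM. Every splenic value of Irf1 lay above the intestinal ones, with a log2 fold change of -0.48 that missed the fold minimum, and the sites overlapped for Ifih1. Cxcl10, a chemokine that like Cxcl9 recruits T cells, was the member called higher, in the M sort, at 17.5, 17.1 and 19.9 TPM in intestine and 12.6, 2.66 and 11.9 TPM in spleen (log2 fold change 1.14 ± 0.35 (SE), adjusted p = 0.00429). The intestinal libraries were all above the splenic ones, and the lowest splenic value belongs to the library labelled M replicate 2. Without that library Cxcl10 was no longer called, and 36 members were lower. Cxcl10 was also not called with only the 2 groups fitted (adjusted p = 0.108). In these comparisons the epithelial list and the neutrophil list moved with the site by the sums given above.

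**Figure D3:**
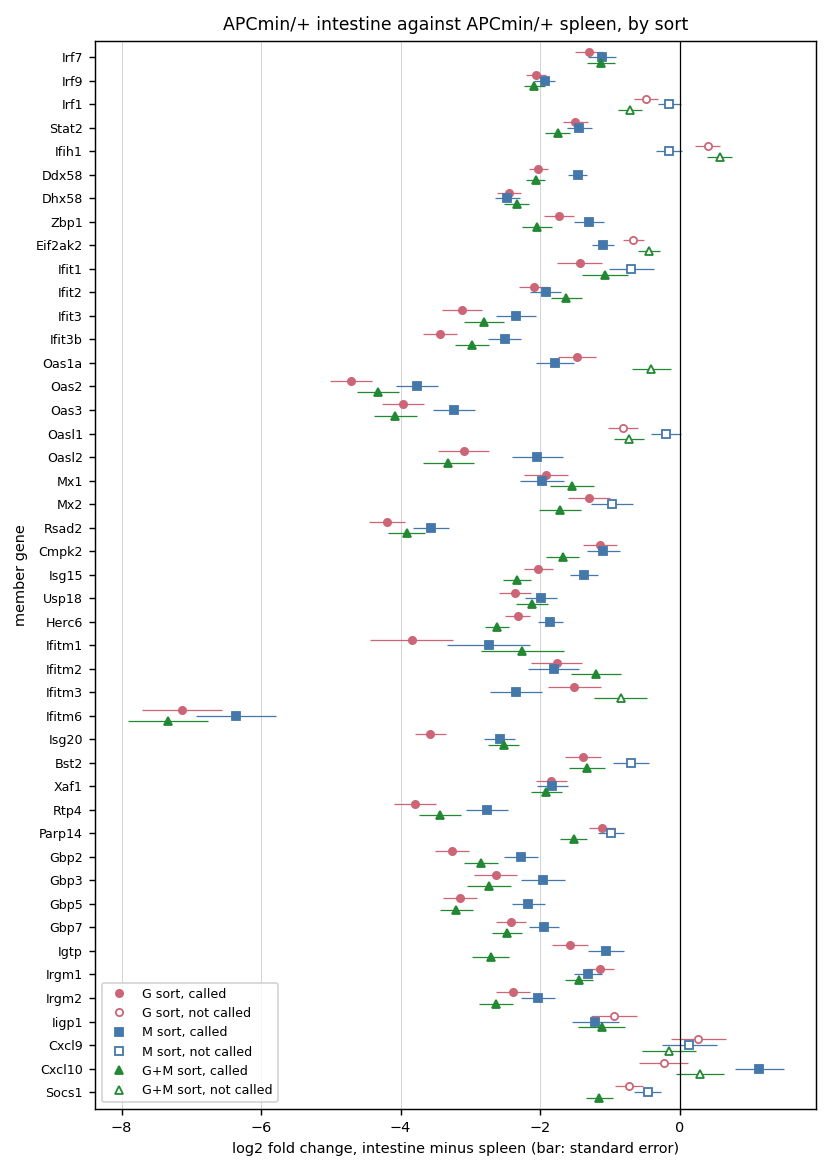
Log2 fold change of each member, intestine minus spleen, in the APCmin/+ G, M and G+M sorts, with standard errors as bars and open symbols for members not called. Nearly all points lie below 0, Ifitm6 lowest at -7.13, -6.36 and -7.34, while Cxcl10 lies above 0 in the M sort at 1.14.

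Other genes of the pathway, from separate lists, were called in both directions between the sites. In the G sort, where 22.2% of all genes tested were lower in intestine and 18.7% higher, 18 of 31 other type I-induced genes were lower and 2 higher. The largest log2 fold changes belonged to Slfn1 (-6.98) and Slfn8 (-4.68), of the Schlafen family, and Ifi27l2a (-5.06). Of 24 tested other gamma-induced genes 14 were lower and 6 higher. Gbp9, another GBP, was lower (-4.11), while Nos2, the inducible nitric oxide synthase (3.72), and the transcription factor gene Batf2 (3.60) were higher. Of 8 negative regulators 7 were lower and none higher, led by Trim30a (-5.04), the phosphatase gene Ptpn6 (-4.00) and Samhd1, which breaks down nucleotides (-3.71).

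Between the 2 kinds of spleen every member called was a type I member, and the difference between the 2 lists was not tested. In the G sort 15 of 33 type I members were higher in APCmin/+ than in BALB/c spleen and none lower, where 3.1% of all genes were higher and 5.77% lower, and no gamma-induced member was called in any sort with all libraries. In the M sort 7 were higher and 2 lower (5.51% and 5.97%), and in the G+M sort 11 higher and none lower (3.61% and 5.39%). The median log2 fold change in the G sort was 0.82 for type I members, 0.04 for gamma-induced members and -0.15 for all genes. At an unadjusted p under 0.05, 4, 4 and 2 of the 12 gamma-induced members passed in G, M and G+M, in either direction. The share of all genes at that threshold was not taken, so these counts cannot be set against it. With 1 library left out some were called lower in APCmin/+ spleen. These were Cxcl9 in G (log2 fold change -1.14, without APCmin/+ G replicate 1), Cxcl10 in M (-1.12 and -1.08, without APCmin/+ M replicate 1 or 3), and Iigp1 (-1.32) and Cxcl9 (-1.27) in G+M (without APCmin/+ G+M replicate 3). Among the other type I-induced genes of the pathway 4 of 31 were higher and 1 lower in G. Apobec3, which restricts retroviruses, was higher in G, M and G+M (log2 fold changes 3.20, 2.70 and 3.20), and Ifi44 was lower (-2.89, -4.50 and -3.32). Among the other gamma-induced genes 1 of 24 was higher and 3 lower in G, with Gbp2b lower in all 3 sorts (-3.96, -3.64 and -3.97).

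Oasl2, an OAS-like protein, differed most in G and G+M, while in M Ifitm1 differed more. It stood at 205, 259.8 and 637 TPM in APCmin/+ G and 10.3, 13.2 and 13.2 TPM in BALB/c G (log2 fold change 4.62 ± 0.36 (SE), adjusted p = 1.93e-11). In G+M it stood at 272, 194 and 224 against 8.58, 11.03 and 6.13 TPM (log2 fold change 4.61 ± 0.36 (SE), adjusted p = 2.09e-11), and in M at 78.8, 189 and 322 against 38.7, 41.9 and 66.3 TPM (log2 fold change 1.81 ± 0.36 (SE), adjusted p = 0.000246). The kinds of mice did not overlap in any sort, and the BALB/c M sort lay above the BALB/c G sort. Ifit3, an IFIT gene whose reads can be shared with its near copy Ifit3b, stood at 53.2, 39.9 and 79.2 TPM in APCmin/+ G and 15.4, 16.4 and 23.01 TPM in BALB/c G (log2 fold change 1.56 ± 0.29 (SE), adjusted p = 0.00012), with a log2 fold change of 1.58 in G+M. Rsad2 was higher in all 3 sorts, with log2 fold changes of 1.45, 1.88 and 1.73, as was the exonuclease gene Isg20 (1.21, 1.22 and 1.40). Without the library labelled M replicate 2, Isg20 had 0.91 in the M sort and was not called.

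All 4 IFITM genes were called higher in the APCmin/+ G sort, but none was with the 2 groups fitted alone (adjusted p from 0.103 to 0.163). Without APCmin/+ G replicate 3 the calls of Ifitm1, Ifitm2 and Ifitm3 were lost, and without replicate 2 those of Ifitm2, Ifitm3 and Ifitm6. Ifitm2 and Ifitm3 overlapped between the kinds of mice. Ifitm1 stood at 322, 1019 and 1813 TPM against 266, 213 and 145 TPM in BALB/c G (log2 fold change 2.06 ± 0.60 (SE), adjusted p = 0.00914), and in M at 65.1, 697 and 645 against 19.2, 13.9 and 24.9 TPM (log2 fold change 3.96 ± 0.60 (SE), adjusted p = 5.8e-06). The APCmin/+ libraries lay above the BALB/c ones but spread widely. Ifitm6 stood at 225, 1548 and 569.6 TPM in APCmin/+ G against 150.4, 203 and 126 TPM in BALB/c G (log2 fold change 1.89 ± 0.57 (SE), adjusted p = 0.0122), with APCmin/+ above BALB/c in every library. The neutrophil list summed to 26310 to 140141 TPM in APCmin/+ G against 17957 to 27839 TPM in BALB/c G. In the M sort it summed to 39147 to 125442 TPM in APCmin/+ against 5753 to 7914 TPM in BALB/c. Its part in the differences of either sort was not tested. Mx2 and Mx1, antiviral GTPases, were the 2 members lower in the APCmin/+ M sort. Mx2 stood at 12.4, 4.05 and 12.6 TPM against 23.8, 26.1 and 25.6 TPM (log2 fold change -1.42 ± 0.30 (SE), adjusted p = 4e-04), and Mx1 at 26.8, 8.90 and 33.3 against 37.9, 32.6 and 58.2 TPM (log2 fold change -1.01 ± 0.32 (SE), adjusted p = 0.0117). The kinds of mice were apart for Mx2 and overlapped for Mx1. The lowest value of both belongs to the library labelled M replicate 2, and without it 4 members were called in the M sort, all higher. Fitted on the 2 groups alone, 7 members were called in G (Isg20, Ifit1, Ifit3, Oasl2, Rsad2, Usp18 and Eif2ak2) and 1 in M (Rsad2). Without BALB/c G+M replicate 3, 7 were called in G+M.

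**Figure D4:**
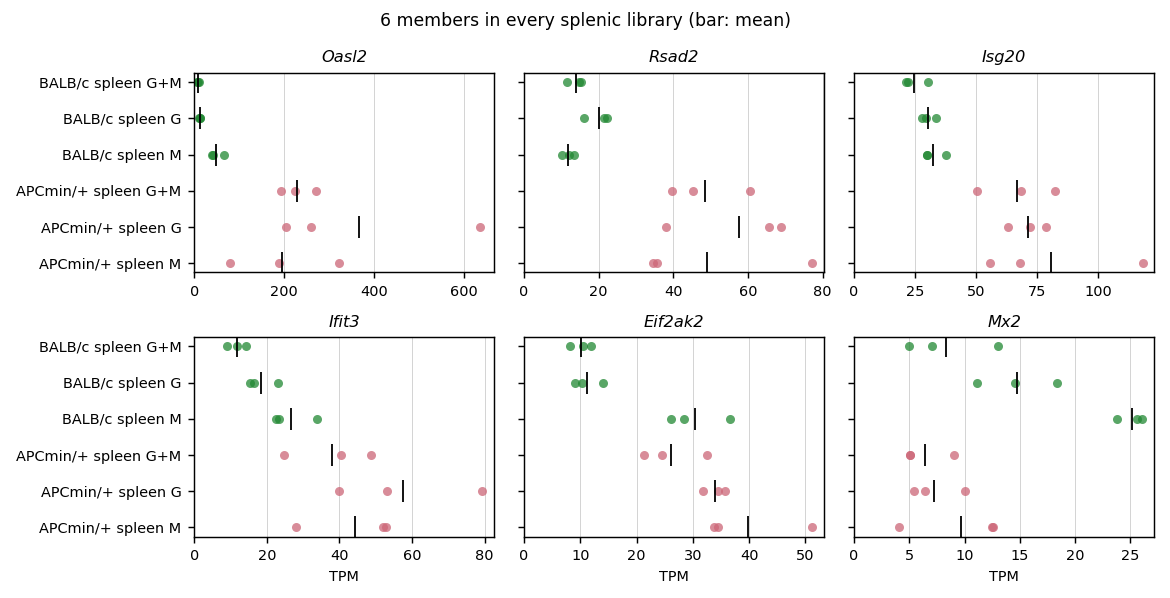
TPM (linear axis) of Oasl2, Rsad2, Isg20, Ifit3, Eif2ak2 and Mx2 in each splenic library (points) with the group mean (bar), by kind of mouse and sort. Oasl2 in the APCmin/+ G sort, at 205, 259.8 and 637 TPM, lies above the BALB/c G values of 10.3, 13.2 and 13.2 TPM.

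Fewer members were called between G and M sorts than between sites. In newborn marrow 4 members were higher in G and 6 lower (all genes 6.89% and 3.33%). Mx1, of which most laboratory strains carry a defective allele, stood at 0.90, 0.95 and 1.02 TPM in G and 18.3, 15.9 and 19.8 TPM in M (log2 fold change -3.27 ± 0.32 (SE), adjusted p = 2.11e-09), and Zbp1, a sensor of Z-form nucleic acid, at 5.40, 5.45 and 5.17 against 27.3, 27.1 and 29.2 TPM (log2 fold change -2.19 ± 0.22 (SE), adjusted p = 4.53e-09). Neither overlapped between sorts. Gbp3 was lower (-1.06), and Oas3 (1.12), Rsad2 (1.11) and Rtp4 (1.04) were higher, as log2 fold changes of G minus M.

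In BALB/c spleen 1 member was higher in G and 8 lower (1.71% and 3.24%). Oasl2 and Oas1a, of the OAS family, had log2 fold changes of -1.88 and -1.71, and Eif2ak2, the kinase PKR that halts translation on double-stranded RNA, -1.38. Mx1 stood at 7.88, 8.89 and 13.9 TPM in G and 37.9, 32.6 and 58.2 TPM in M (log2 fold change -1.96 ± 0.32 (SE), adjusted p = 3.21e-05), with every M library higher. All 9 calls held under every alternative run.

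Of the 4 IFITM genes, Ifitm1 and Ifitm3 went in opposite directions between sorts. By mean, Ifitm2 was lower in G than in M, at 319 against 457 TPM in BALB/c spleen and 478 against 603 TPM in marrow. Ifitm6 had means of 160 against 307 TPM in BALB/c spleen and 1348 against 1283 TPM in marrow. In BALB/c spleen Ifitm3 stood at 149.8, 171 and 222 TPM in G and 967, 859 and 1627 TPM in M (log2 fold change -2.62 ± 0.38 (SE), adjusted p = 6.85e-06), while Ifitm1 stood at 266, 213 and 145 TPM in G and 19.2, 13.9 and 24.9 TPM in M (log2 fold change 3.35 ± 0.60 (SE), adjusted p = 0.000121). The sorts did not overlap for either gene. Newborn marrow showed both directions, with Ifitm3 at 304, 296 and 335 against 681, 665 and 718 TPM (log2 fold change -1.14 ± 0.38 (SE), adjusted p = 0.0206) and Ifitm1 at 243, 235 and 244 against 102, 71.4 and 70.9 TPM (log2 fold change 1.57 ± 0.60 (SE), adjusted p = 0.0442), again without overlap. The marrow call of Ifitm1 was lost without any 1 of the 6 libraries (adjusted p from 0.0554 to 0.114), with no filter (0.0787) and with the replicate number as a block (0.0544), and that of Ifitm3 without G replicate 1 or 2 or M replicate 3 (0.0553 to 0.057). Both calls held with only the 2 marrow groups fitted. The main fit shares its spread over all 39 libraries, and Ifitm1 ran from 322 to 1813 TPM in APCmin/+ spleen G. Its SE is therefore not the spread between marrow libraries. Both lie on chromosome 7, and reads shared between IFITM copies could be split by the authors' counting.

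**Figure D5:**
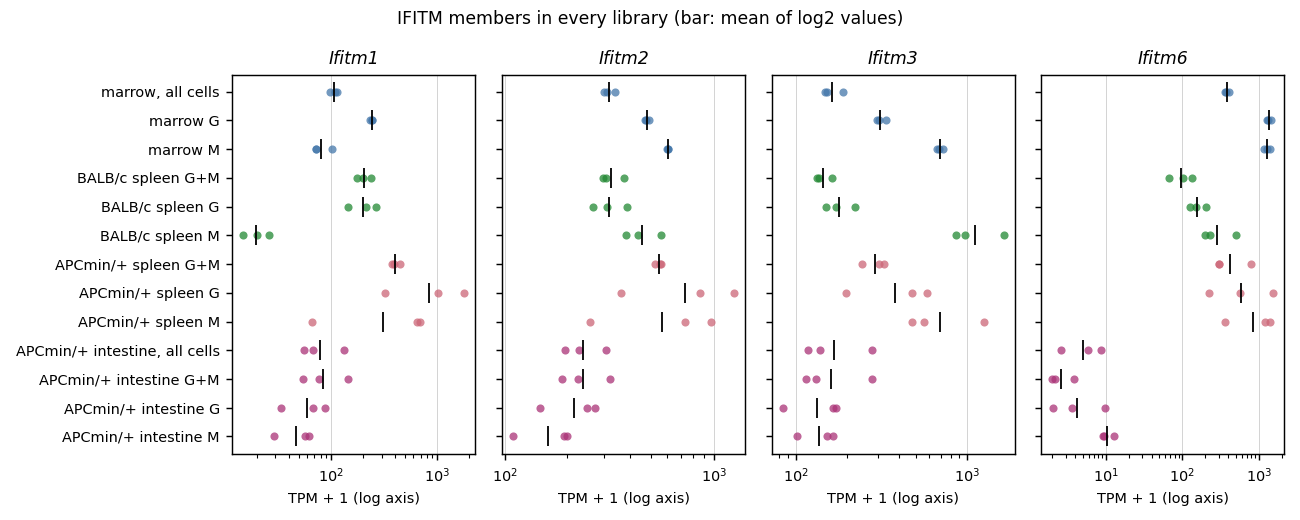
TPM + 1 on a log axis of the 4 IFITM members in every library (points) with the mean of log2 values (bar), by group. Ifitm1 is higher and Ifitm3 lower in G than in M in marrow and BALB/c spleen, and Ifitm6 is at 1.00 to 11.9 TPM in intestine.

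In APCmin/+ spleen no member was called between G and M (all genes 0.579% higher and 2.64% lower), with 12 at an unadjusted p under 0.05. The share of all genes at that unadjusted threshold was not taken. The sort labelled M carried the neutrophil list within the range of G there, by the sums given above, and its part was not tested. Ifitm1 stood at 322, 1019 and 1813 TPM in G and 65.1, 697 and 645 TPM in M (log2 fold change 1.44 ± 0.60 (SE), adjusted p = 0.0848), and the sorts overlapped. With the replicate number as a block it was called (log2 fold change 1.44, adjusted p = 0.00446). Without the library labelled M replicate 2, Ifitm1 (2.03), Mx1 (-1.15) and Cxcl10 (-1.35) were called. Ifitm1 and Oasl2 were called without G replicate 1 or M replicate 3, and Ifitm3 without G replicate 2. In intestine 3 members were lower in G and none higher (2.76% and 0.0704%). Cxcl10 stood at 3.80, 2.70 and 3.94 TPM in G and 17.5, 17.1 and 19.9 TPM in M (log2 fold change -2.10 ± 0.35 (SE), adjusted p = 0.000213), Bst2, the virus tether, at 13.4, 17.1 and 19.3 against 40.4, 44.6 and 51.1 TPM (log2 fold change -1.41 ± 0.26 (SE), adjusted p = 0.000612), and Isg20 at 4.24, 6.57 and 4.57 against 9.73, 13.2 and 13.2 TPM (log2 fold change -1.10 ± 0.23 (SE), adjusted p = 0.00185). The sorts did not overlap for any of the 3. Isg20 was not called without G replicate 1, nor with only the 2 groups fitted (adjusted p = 0.124). The B and plasma cell list moved with these sorts by the sums given above, and its part was not tested.

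Whether the G against M difference itself changed was tested directly. Between APCmin/+ and BALB/c spleen it differed for 2 members (all genes 0.531% higher and 0.547% lower), Oasl2 (log2 fold change 2.82 ± 0.51 (SE), adjusted p = 0.00254) and Eif2ak2 (log2 fold change 1.18 ± 0.22 (SE), adjusted p = 0.00333). Eif2ak2 stood at 31.7, 35.8 and 34.5 and 33.8, 34.4 and 51.2 TPM in APCmin/+ G and M, against 9.09, 10.2 and 14.03 and 26.1, 28.5 and 36.5 TPM in BALB/c G and M. Its G and M sorts overlapped in APCmin/+ spleen and were apart in BALB/c spleen. The neutrophil list likewise overlapped between G and M in APCmin/+ spleen and was apart in BALB/c spleen. The part of that list in these differences was not tested. With the replicate block 6 were called, adding Ifitm3, Oas1a, Mx1 and Zbp1, and with the 4 groups alone none. Without APCmin/+ G replicate 1 there were 4, and without M replicate 3 there were 7. Between intestine and APCmin/+ spleen it differed for Cxcl10 (log2 fold change -1.37 ± 0.49 (SE), adjusted p = 0.0401), where 4.92% of all genes were higher and 3.6% lower. Without the library labelled APCmin/+ spleen M replicate 2 the value for Cxcl10 was -0.75 (adjusted p = 0.172). It also missed the threshold without APCmin/+ spleen G replicate 1 or 3, intestinal G replicate 2 or 3, or any 1 intestinal M library, with adjusted p from 0.0517 to 0.1.

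Against all cells of the same tissue, the sorted marrow cells carried less of some members and more of others. In the G sort 7 of the 45 members were higher and 5 lower, where 9.65% of all genes were higher and 9.49% lower. Whether members were called more often than other genes was not tested. Isg20 stood at 21.9, 25.9 and 29.5 TPM in G and 199, 141 and 192 TPM in all cells (log2 fold change -2.73 ± 0.23 (SE), adjusted p = 6.66e-11), Rsad2 at 6.80, 6.70 and 6.81 against 62.01, 29.9 and 65.1 TPM (log2 fold change -2.70 ± 0.26 (SE), adjusted p = 1.32e-09), and Isg15 at 6.56, 7.47 and 6.18 against 28.4, 22.7 and 27.5 TPM (log2 fold change -1.81 ± 0.20 (SE), adjusted p = 1.66e-08). All 3 were lower in the sort without overlap. Oas2 (2.11), Ifitm6 (1.83), Oasl2 (1.47) and Ddx58, the RNA sensor RIG-I (1.47), were higher. In the M sort 8 of the 45 were higher and 3 lower, against 7.87% and 11.2% of all genes. The 3 lower were again Rsad2 (-3.81), Isg20 (-3.56) and Isg15 (-1.72), and the largest higher ones were Mx1 (2.24), Ifitm3 (2.09) and Zbp1 (1.92). The erythroid list summed to 34808 to 62380 TPM in all marrow cells against 397 to 1623 TPM in the sorts, and its part was not tested.

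In intestine the sorts differed little from all cells. The G sort had 2 of the 45 members lower, Isg20 (-1.31) and Cxcl10 (-1.22), and none higher, against 5.23% and 0.157% of all genes. The M sort had none either way (all genes 3.68% lower and 0.742% higher), with 6 at an unadjusted p under 0.05. Whether members were called more often than other genes was not tested in intestine either. The G+M sort had 3 lower and none higher (3.23% and 0.0108%), all gamma-induced. Gbp3 stood at 3.20, 2.49 and 2.56 TPM in G+M and 5.91, 10.4 and 6.24 TPM in all cells (log2 fold change -1.15 ± 0.31 (SE), adjusted p = 0.0241), with Gbp7 (-1.10) and Iigp1 (-1.12) beside it. The G+M and all-cell libraries did not overlap for Gbp3. None of the 3 was called without replicate 2 of all intestinal cells, 1 was without G+M replicate 2, and 5 members were without replicate 1 of all cells. In the G sort the count was 1 without replicate 2 or 3 of all cells, 4 without replicate 1 of all cells and 5 without G replicate 3. In the M sort it was 1 without replicate 2 or 3 of all cells or without M replicate 2.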

How the data were processed

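RNA of sorted cells or all cells was sequenced in 39 libraries (TruSeq Stranded mRNA, single reads, per the labels' protocols). The authors deposited TPM per gene. The submitters' processing notes name bcl2fastq 2.18, STAR 2.6.1c, RSEM and mm10. Each column sums to 1000000, so depth is unknown and no counts were tested. Of 53465 genes 35653 were above 0 and 18466 were kept (1 TPM or more in 3 or more libraries). limma 3.58.1 in R 4.3.3 was fitted to log2(TPM + 1) with a mean per group over all 39 libraries and a variance trend, two-sided, with Benjamini-Hochberg adjustment over all genes kept, in 15 comparisons and 2 tests of a difference of differences. The fit was tested on simulated data. Members and lists were chosen with earlier results of these data known. Library values are given for the called members with the largest log2 fold changes, up to 4 in each direction with a mean of at least 5 TPM in a group, and for others where a sentence needs them. The labels do not say what replicate numbers mark. Same-numbered libraries deviated together, with correlations over 0.1 in all 3 pairs, for G and M in APCmin/+ spleen (0.555, 0.375 and 0.404) and intestine (0.599, 0.432 and 0.562), and for G+M and all cells of intestine (0.643, 0.59 and 0.628). Alternatives were a pseudocount of 0.1, no filter, rescaled libraries, no fold minimum, only the groups compared, a replicate block, and each library left out. A gene of the pathway lists is not reported here.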

Additional observations from a re-analysis of the deposited data

Results flagged for a closer look

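The G against M difference was itself different between groups for 3 members. For Oasl2 the log2 fold change of G minus M was 0.94 in APCmin/+ spleen, where it was not called, and -1.88 in BALB/c spleen, a signed difference of 2.82 (adjusted p = 0.00254), G standing at 205, 259.8 and 637 TPM and M at 78.8, 189 and 322 TPM in APCmin/+ and G at 10.3, 13.2 and 13.2 and M at 38.7, 41.9 and 66.3 TPM in BALB/c. For Eif2ak2 G minus M was -0.20 in APCmin/+ spleen, not called, and -1.38 in BALB/c spleen, a signed difference of 1.18 (adjusted p = 0.00333). For Cxcl10 the difference between intestine and APCmin/+ spleen was -1.37 (adjusted p = 0.0401), and it was not called without the library labelled APCmin/+ spleen M replicate 2, where Cxcl10 stood at 2.66 TPM. None of the 3 was called under every alternative run. The neutrophil list overlapped between G and M in APCmin/+ spleen but not in BALB/c spleen, and its part was not tested.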

How the results depend on the processing

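No member called in a comparison reversed direction under any alternative. Of 1206 values with a library left out 95 were no longer called, and of 198 under each other alternative 30 with only the groups compared, 20 under rescaling and at most 6 under the rest. Counts of members called moved by over 1.5 times as follows. With no fold minimum they were 16 (marrow G against M), 18 (BALB/c spleen G against M), 3 (APCmin/+ spleen G against M), 7 (intestine G against M), 14 and 18 (APCmin/+ against BALB/c, M and G+M), 24 and 26 (marrow G and M against all cells), 8, 3 and 7 (intestine G, M and G+M against all cells) and 6 (G against M, intestine against spleen). With rescaled libraries they were 2 (APCmin/+ spleen G against M), 5 (intestine G against M), 4 (intestine M against all cells) and 12 (G against M, intestine against spleen). With a pseudocount of 0.1 they were 17 (marrow M against all cells), 5 (intestine G against all cells) and 3 (G against M, intestine against spleen), which was 0 with no filter. With only the groups compared they were 7 and 1 (APCmin/+ against BALB/c, G and M) and 0 for intestine G and G+M against all cells and for both differences of differences. With the replicate block they were 1 (APCmin/+ spleen G against M) and 6 (G against M, APCmin/+ against BALB/c), and no other count moved by over 1.5 times.

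With each library left out in turn the counts ran from 7 to 10 (marrow G against M), 9 to 11 (BALB/c), 0 to 3 (APCmin/+ spleen) and 2 to 4 (intestine), 35 to 38, 31 to 38 and 33 to 37 (intestine against spleen, G, M and G+M), 10 to 19, 4 to 11 and 7 to 13 (APCmin/+ against BALB/c, G, M and G+M), 12 to 12 and 10 to 15 (marrow G and M against all cells), 1 to 5, 0 to 1 and 0 to 5 (intestine G, M and G+M against all cells), 0 to 7 (G against M, intestine against spleen) and 2 to 7 (APCmin/+ against BALB/c). Rescaling moved the share of higher among all called genes from 34.5% to 45.7% (BALB/c spleen G against M), 18% to 45.7% (APCmin/+ spleen), 34.9% to 48.3% and 48% to 59.6% (APCmin/+ against BALB/c, G and M), 16.8% to 38.9% (intestine M against all cells) and 57.8% to 21.3% (G against M, intestine against spleen). It moved the median log2 fold change of all genes by over 0.1 where intestine was compared with spleen (M from -0.43 to 0), with all cells (M from -0.27 to -0.02) or between sorts (0.14 to -0.01), and between kinds of mice (G from -0.15 to -0.01). The cause of these moves was not tested. Depth is unknown. Each group mean rests on 3 libraries, and the main fit takes its spread from all 39 libraries.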
